A study of Mus musculus with 96 samples.

Results

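Cells that carried the transcript of the estrogen receptor gene Esr1 were compared by whether they also carried that of the progesterone receptor gene Pgr. Uteri of 7-day-old mice were digested with collagenase, and the cells were sorted singly for the surface antigen CD326 (EpCAM, an epithelial adhesion protein), and each measured with 96 quantitative PCR assays on a microfluidic chip. The labels name 1 group of 96 cells, with no treatment, genotype, strain or animal, so every cell shares the same description and the cells are not replicates of a condition. The measured value is the cycle threshold (Ct), the number of PCR cycles needed before product shows, so that a lower Ct means more transcript and a Ct of 40 stands for none. Cells were kept when their Gapdh Ct was below 18 and their Esr1 Ct below 28, which left 72 of 96 cells. Of these, 50 had a Pgr Ct below 28 and are called the cells with Pgr, and 22 did not and are called the cells without Pgr. The cells were thus chosen by their measured Gapdh, Esr1 and Pgr Ct values, and a cell without Pgr is a cell in which no Pgr was found below the limit, not one shown to lack it.

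Estrogen receptor alpha, the product of Esr1, is a hormone-activated transcription factor that relays estrogen signals in the uterus. Pgr is a well known estrogen-responsive gene, and its product, the progesterone receptor, is itself a hormone-activated transcription factor that governs how the uterus prepares for pregnancy. In the newborn mouse the uterine epithelium is simple and hormone cycles have not begun, and the homeobox genes of the Hoxa cluster, Emx2 and the WNT ligand gene Wnt7a take part in shaping the tract that forms from the Müllerian duct.

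Some of the Pgr values lay near the chosen Ct limit of 28, and the Esr1 values lay far from it. In the 50 cells with Pgr the Pgr Ct ran from 19.5 to 27.96 with a median of 24.9, and 12 of the 50 lay within 2 cycles of the limit. The nearest value inside the limit was 27.96 and the nearest outside 28.8, the only recorded value among the cells without Pgr, since the other 21 had no Ct. The Esr1 Ct never came closer to its limit than 23.8, and the 16 cells with Gapdh below 18 that were left out for lack of Esr1 had no Esr1 Ct at all. The Gapdh limit fell in a gap between 16.5 and 18.3. Among those 16 cells without Esr1, 5 had Pgr (31.2%, exact 95% interval 11.0 to 58.7%), against 69.4% (57.5 to 79.8%) of the Esr1 cells. Exact intervals here are Clopper-Pearson intervals and cover counting error only.

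On average the cells with Pgr held slightly more Esr1 and Gapdh and detected more assays, by less than the SD between cells in each case, and the groups overlapped widely. Their Gapdh Ct had a median of 13.0 (9.43 to 16.0), and that of the cells without Pgr 13.1 (10.5 to 16.2). The Esr1 level relative to Gapdh is given as Ct minus Gapdh Ct, so that smaller means more: it was 6.80 ± 1.86 cycles (SD, n = 50 cells) with Pgr and 7.46 ± 1.66 (n = 22) without. Single cells ran from 2.15 to 10.9 and from 2.64 to 10.7. Of the 93 assays other than Gapdh, Esr1 and Pgr, the cells with Pgr detected a median of 53 (35 to 75, mean 54.0 ± 8.30) and the cells without Pgr 51 (31 to 63, mean 49.7 ± 9.08). Among the 24 cells with the fewest detected assays 14 had Pgr, and in each of the other 2 strata of 24 cells 18 did. Within the 50 cells the Pgr Ct followed the Gapdh Ct (Spearman rho = 0.49, Pearson r = 0.50), and the Gapdh-relative levels of Pgr and Esr1 went together weakly (rho = 0.20, r = 0.18). These correlations describe cells of 1 group, where both values of a cell share its depth, and no p is given.

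**Figure D1:**
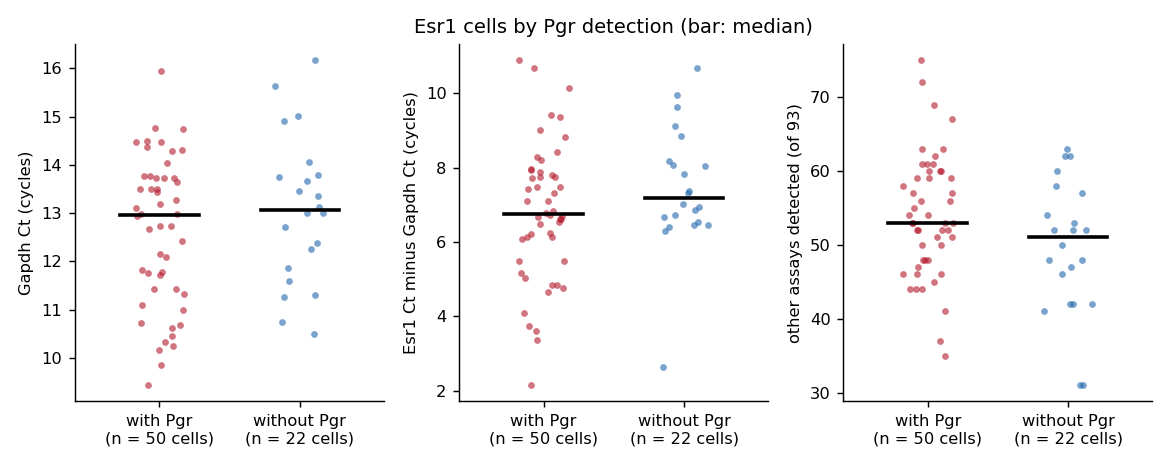
Each point is 1 cell, 50 with Pgr and 22 without, and the bar is the median. The left panel shows the Gapdh Ct in cycles, the middle panel the Esr1 Ct minus the Gapdh Ct in cycles (lower means more Esr1), and the right panel the number of other assays detected of 93, with medians of 53 and 51.

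Because a deeper cell detects more of everything, each difference in detection share was averaged over 3 strata of equal size by the number of detected assays, leaving out the assay in question. Differences are given in percentage points, with Pgr minus without Pgr, and a difference of at least 20 points was taken as large. In the smaller group 1 cell is worth 4.55 points. Of 93 assays, 8 were at least 20 points higher in the cells with Pgr (8.6%) and 1 at least 20 points lower (1.08%). The median over all assays was 0 points with the strata and 2.55 without, and 46 assays lay above 0 and 39 below. No test was made, since the cells come from 1 group with no animal named, and every difference below is a description of these cells.

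Among the genes that pattern the duct, Hoxa10, Hoxa11 and Emx2 were found in at least 20 points more of the cells with Pgr, and the other 4 measured did not reach that size in either direction. Hoxa10, a homeobox gene of the uterine domain needed for implantation, was detected in 11 of 50 cells with Pgr (22.0%, interval 11.5 to 36.0%) and in 0 of 22 without, which allows a share of up to 13.6% taking 3 cells as the limit for a count of 0 (the exact interval ends at 15.4%). The stratified difference was 21.9 points, and cells with Pgr and Hoxa10 occurred in every stratum, at 3 of 14, 3 of 18 and 5 of 18 cells. It was 16.4 points in the cells that also detect Epcam and 11.2 in those that detect the reference gene Hprt. The cells that detect Hprt are 38 with Pgr and only 12 without, so 1 cell weighs more in each value given for them. Hoxa11, its neighbour in the cluster, was found in 19 of 50 (38.0%, 24.7 to 52.8%) and 3 of 22 (13.6%, 2.91 to 34.9%), a stratified difference of 23.6 points. Many of its values lay near the limit, with a median Ct of 23.5 in the cells with Pgr and 26.4 without, and with a Ct limit of 24 the difference was 16.9 points. It was absent in the middle stratum, with 6 of 18 against 2 of 6 cells, and reached 39.1 points in the cells that detect Hprt. At least 1 of Hoxa10 and Hoxa11 was detected in 23 of 50 cells (46.0%, 31.8 to 60.7%) against 3 of 22 (13.6%), and both in 7 against 0. With Hoxa10 in 0 of 22 cells without Pgr, the counts of 3 and 0 there were fixed by the single shares.

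Hoxa13, the Hoxa gene of the lower tract, stood at nearly equal shares. It was detected in 21 of 50 cells with Pgr (42.0%, 28.2 to 56.8%) and 9 of 22 without (40.9%, 20.7 to 63.6%), a stratified difference of -1.98 points. Cells with Hoxa13 but neither Hoxa10 nor Hoxa11 made up 12 of 50 (24.0%, 13.1 to 38.2%) and 8 of 22 (36.4%, 17.2 to 59.3%), and none of the 3 was found in 15 of 50 and 11 of 22. The higher share with Pgr was thus seen for 2 of the 3 measured Hoxa genes, and whether the Hoxa genes differ in this was not tested.

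Emx2, a homeobox gene needed for the duct, was detected in 27 of 50 cells with Pgr (54.0%, 39.3 to 68.2%) and 6 of 22 without (27.3%, 10.7 to 50.2%). Its plain difference of 26.7 points was 21.9 with the strata, and it passed 20 points in 6 of 13 alternative settings. In the lowest stratum Emx2 was found in 5 of 14 cells against 1 of 10 and in the middle stratum in 7 of 18 against 0 of 6, but in the highest in 15 of 18 against 5 of 6. In the 50 cells that detect Hprt the difference was 0.68 points. Pax2, a paired-box gene of the duct, was at 27 of 50 and 9 of 22 (8.99 points), and Lhx1, another homeobox gene of the duct, at 5 of 50 and 1 of 22 (5.62 points). Wnt7a, the WNT ligand of the uterine epithelium, stood at 27 of 50 (54.0%, 39.3 to 68.2%) and 15 of 22 (68.2%, 45.1 to 86.1%), a stratified difference of -19.1 points. Over 13 alternative settings it ran from -14.0, with a Ct limit of 26 or 24, to -31.6 in the cells that detect Hprt, and it passed 20 points in 6. Over the 7 genes of this list 3 were at least 20 points higher, against 8.6% of all assays, and 0 lower, against 1.08%, with a median of 8.99 points against 0 over all assays. The list was drawn up with these data known.

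**Figure D2:**
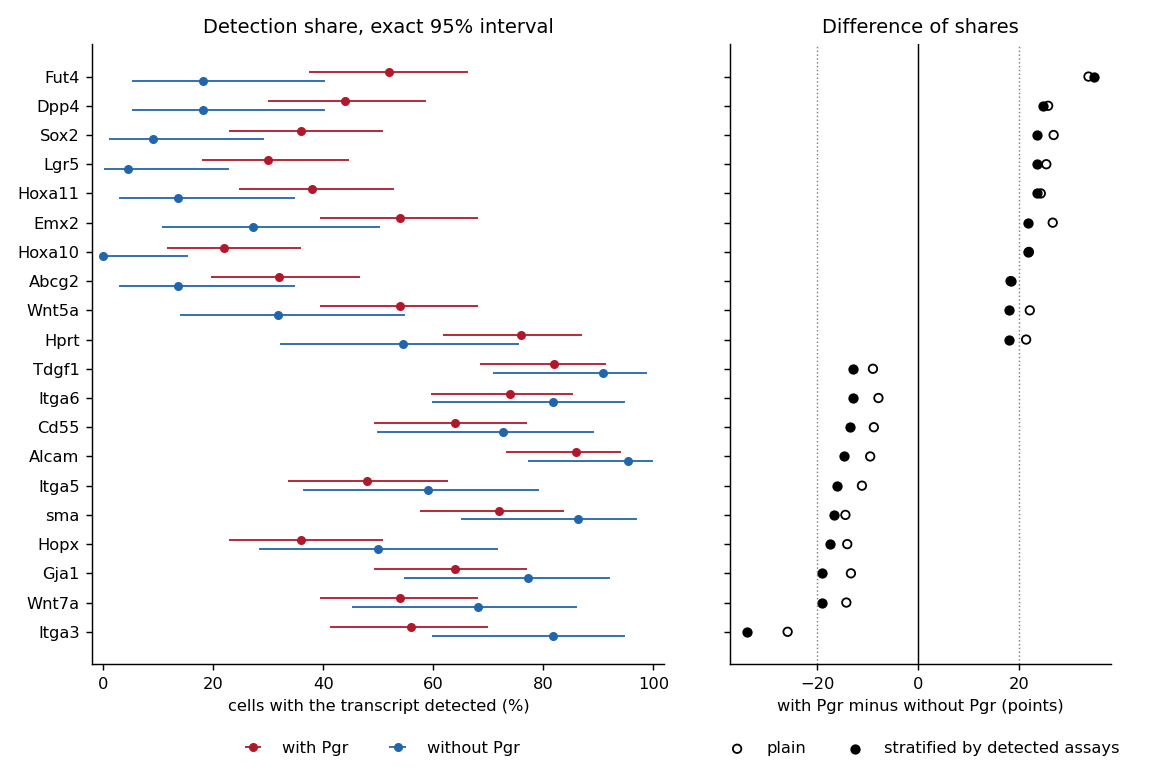
Left, the percent of cells that detect each transcript in the 50 cells with Pgr and the 22 without, with exact 95% intervals, for the 10 drawn assays with the highest and the 10 with the lowest stratified differences, most of the latter short of 20 points. Right, the difference with minus without Pgr in percentage points, plain (open) and averaged over strata of detected assays (filled), with dotted lines at 20 points in either direction. The filled points of the assays from Fut4 to Hoxa10 lie beyond the right line and that of Itga3 beyond the left.

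The largest difference was that of Fut4, which encodes a fucosyltransferase that makes the stage-specific antigen SSEA1. Fut4 was detected in 26 of 50 cells with Pgr (52.0%, 37.4 to 66.3%) and 4 of 22 without (18.2%, 5.19 to 40.3%). The stratified difference was 34.8 points, with 8 of 14 against 2 of 10 cells in the lowest stratum, 7 of 18 against 0 of 6 in the middle and 11 of 18 against 2 of 6 in the highest. In the detecting cells the Fut4 Ct had a median of 22.0 with Pgr (19.2 to 26.7) and 21.5 without (21.2 to 24.9), and the ranges overlapped. Under 13 alternative settings the difference ran from 24.2 to 39.6 points.

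Dpp4, the surface serine peptidase CD26, was found in 22 of 50 cells with Pgr (44.0%, 30.0 to 58.7%) and in 4 of 22 without (18.2%, 5.19 to 40.3%), a stratified difference of 24.7 points. The lowest stratum showed no such difference, with 4 of 14 and 3 of 10 cells, and it came from the middle (8 of 18 against 1 of 6) and the highest (10 of 18 against 0 of 6). Among the 13 alternatives its difference stayed between 21.0 points and the 42.5 points of the cells that detect Hprt. The 4 cells without Pgr that held Dpp4 had Ct values of 19.9 to 26.6, against a median of 17.7 in the cells with Pgr (15.4 to 22.6). Relative to Gapdh these 4 stood at 3.78, 6.97, 9.49 and 12.6 cycles. The cells with Pgr ran from 3.07 to 10.1 cycles, so the groups overlapped. Of the other surface peptidase genes, Mme differed by 1.98 points, Anpep by 10.1 and Enpep by -11.3, all short of 20.

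Lgr5, an R-spondin receptor gene that marks stem cells in several epithelia, was detected in 15 of 50 cells with Pgr (30.0%, 17.9 to 44.6%) and 1 of 22 without (4.55%, 0.115 to 22.8%). Its stratified difference was 23.6 points, 32.2 in the cells that detect Epcam and 19.1 with a Ct limit of 24. The 1 cell without Pgr had an Lgr5 Ct of 22.8, against a median of 18.9 (15.0 to 24.7) in the cells with Pgr. That cell also had a high Gapdh Ct of 16.2. Relative to Gapdh its Lgr5 stood at 6.61 cycles, within the 4.43 to 13.2 of the cells with Pgr. Sox2, a transcription factor gene of pluripotent and some epithelial cells, was at 18 of 50 (36.0%, 22.9 to 50.8%) and 2 of 22 (9.09%, 1.12 to 29.2%), also 23.6 points. The difference was 9.57 points in the cells that detect Epcam, and in the highest stratum Sox2 was found in 7 of 18 cells against 2 of 6.

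**Figure D3:**
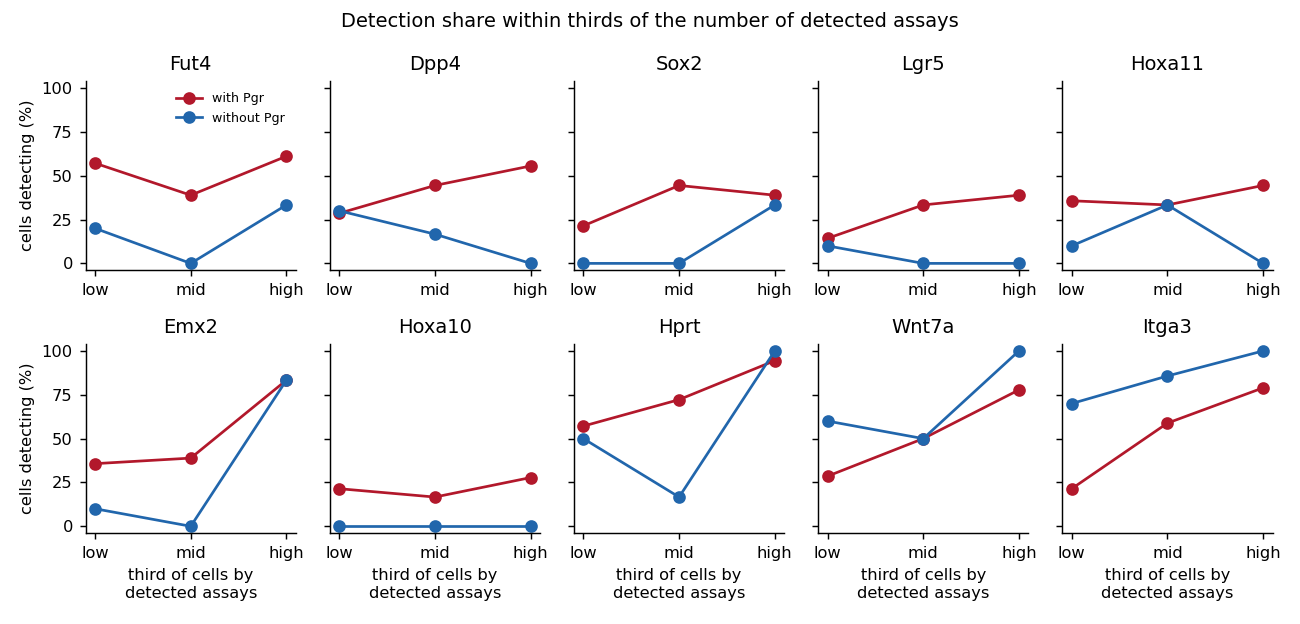
Percent of cells that detect each of 10 transcripts within 3 strata of equal size by the number of other detected assays, for cells with and without Pgr. The strata hold 14, 18 and 18 cells with Pgr and 10, 6 and 6 without (differing by 1 cell for Itga3), Hoxa10 is at 0 without Pgr in each, Emx2 meets and Hprt nearly meets in the highest stratum, and Itga3 is lower with Pgr in each.

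Itga3 was the 1 gene past 20 points in the other direction, found less often with Pgr. It encodes the alpha 3 integrin subunit, part of a laminin receptor at the base of epithelial cells, and was detected in 28 of 50 cells with Pgr (56.0%, 41.3 to 70.0%) and 18 of 22 without (81.8%, 59.7 to 94.8%). The plain difference of -25.8 points was -33.9 with the strata. In both groups the share was larger in each higher stratum: it was detected in 3 of 14 against 7 of 10 cells in the lowest stratum, 10 of 17 against 6 of 7 in the middle and 15 of 19 against 5 of 5 in the highest. With a Ct limit of 24 the difference was -17.4 points. Itga3 was the 1 integrin subunit gene past 20 points. Itga5, of a fibronectin receptor, differed by -16.1 points and Itga6, a basal laminin receptor subunit, by -12.9, while Itgb1 (3.37) and Itgae (8.19) differed in the other direction, each short of 20. Over the list of 7 integrin genes, which holds Itgb1 but not Itgae, 6 lay below 0 and 1 above, with a median of -6.18 points. Over all 93 assays 39 lay below 0 and 46 above, with a median of 0. Next to Itga3 and Wnt7a the lowest were Gja1, the gap junction gene of connexin 43 (64.0% against 77.3%, -18.9 points, and -9.35 in the cells that detect Hprt), Hopx, a homeodomain-only gene (36.0% against 50.0%, -17.5, and -39.0 in the cells that detect Hprt) and sma (72.0% against 86.4%, -16.7). Alcam (-14.6), Cd55 (-13.5, and -25.7 in the cells that detect Hprt) and Tdgf1 (-12.9) completed the 10 lowest.

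Krt8, Krt18, Krt19, Cd24a and Cdh1 were found in nearly all cells of both groups, Epcam in fewer. Krt19 was detected in every cell, Krt18 in 49 of 50 and 22 of 22, Krt8 in 47 and 22, Cd24a in 48 and 22, and Cdh1 (E-cadherin) in 46 and 21. Epcam, the gene of the sorting antigen, was at 39 of 50 (78.0%) and 17 of 22 (77.3%), a stratified difference of -3.37 points. Of the 6 epithelial genes 0 differed by 20 points, with a median of -3.65 against 0 over all assays. Over all assays 8.6% were at least 20 points higher and 1.08% lower, so 0 of 6 says little about these genes.

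Markers of other cell types were found in both groups, in overlapping numbers. Of 13 stromal, endothelial and immune markers the cells with Pgr detected a median of 8 (3 to 12) and the cells without Pgr 7 (2 to 11). Their summed level (28 minus Ct, undetected at 0) ran from 24.2 to 105 with a median of 63.2 in the first group and from 18.7 to 99.8 with a median of 61.4 in the second. None of the 13 differed by 20 points. Over all assays 8.6% were at least 20 points higher and 1.08% lower, so this count says little about the 13. Thy1 was the highest at 16.3 points (13 of 50 against 2 of 22) and sma the lowest. Vim, the mesenchymal filament gene, was found in 4 of 50 and 2 of 22 cells, Eng in 9 and 3, Mcam in 10 and 3, Tbx3 in 14 and 5, Nt5e in 46 and 21, Mme in 42 and 17, Cd34 in 32 and 12, and the immune genes Ptprc in 36 and 15, Cd40 in 42 and 16 and Il17ra in 29 and 12. All 72 cells gave a Ct for Pecam1, which encodes an adhesion protein of endothelium, beside the epithelial genes. The part of such markers in the differences above was not tested. For Ptprc and Il17ra the strata moved the difference most of all assays, from 3.82 to -4.80 points and from 3.45 to -5.06 points. Nes (-11.6 with the strata, -3.27 without), Itga3, Krt15 (-10.7 and -2.73) and Insr (-3.37 and 2.91) followed.

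Genes of proliferation and glands were mixed. Mki67, a gene of cycling cells, was at 20 of 50 (40.0%, 26.4 to 54.8%) and 8 of 22 (36.4%, 17.2 to 59.3%), a stratified difference of 0. Ezh2, a Polycomb methyltransferase gene, was at 38 of 50 and 13 of 22 (10.7 points) and Myc at 49 of 50 and 18 of 22 (15.2 points). Of the gland genes, Sox9 was detected in 25 of 50 and 7 of 22 (13.5 points), Aldh1a1 in 10 and 1 (15.2 points) and Foxa2 in 4 and 3 (-7.30 points), so 0 of 3 reached 20. Abcg2, a drug efflux transporter gene (32.0% against 13.6%, 18.5 points), Wnt5a, a WNT ligand gene of the mesenchyme (54.0% against 31.8%, 18.0 points), and the reference gene Hprt (76.0% against 54.5%, 18.0 points) came just short. By stratum Hprt was found in 8 of 14 against 5 of 10 cells, 13 of 18 against 1 of 6, and 17 of 18 against 6 of 6, so its difference came mostly from the middle stratum. In the WNT and R-spondin list 1 of 11, Lgr5, was at least 20 points higher, a share near the 8.6% of all assays, and 0 lower. Of the growth factor receptors, 0 of 5 passed in either direction, and Mst1r was the highest (42.0% against 22.7%, 13.5 points). With 8.6% of all assays higher and 1.08% lower, 0 of 3 gland genes and 0 of 5 receptors say little about these lists. Trp63 and the nerve growth factor receptor gene Ngfr, both found in 5 of 50 cells with Pgr, were found in 0 of 22 without, where 3 cells as the limit again allow a share of up to 13.6%.

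Some of the transcripts past 20 points were also counted in pairs. Emx2 and Hoxa11 were found together in 11 of 50 cells and 0 of 22, and Lgr5 and Fut4 in 6 and 0. Each of these 4 genes was already found in few cells without Pgr, Hoxa11 in 3 and Lgr5 in 1 of 22. Joint counts at or near 0 there follow from the single shares and say nothing further about the pairs. Of 47 assays found in 20 to 80% of the 72 cells, the most alike in detection were Hprt, present or absent together with Pgr in 48 of 72 cells (66.7%), Ezh2 in 47 (65.3%), and Epcam, Fut4 and Fzd4 in 44 each (61.1%). Msi1 tied with these at 44. Because Pgr was found in 50 of the 72 cells, this count favours assays found in many cells. Epcam was detected in 78.0% of the cells with Pgr and 77.3% of those without, so its place here does not show that it goes with Pgr.

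Within the cells with Pgr, detection was also set against the Pgr level. The 50 cells were divided at the median Gapdh-relative Pgr level into 25 and 25, which had equal medians of 53 detected assays, a split chosen after the values were seen. The split uses the Pgr values by which the cells were chosen, and its counts were not averaged over strata. They describe these cells and are not support for the differences above. Over all 50 the Pgr level and the number of detected assays went weakly in opposite directions (rho = -0.21, r = -0.28), so equal medians do not make the 2 sets alike in depth. Of 93 assays, 28 were found in more of the cells with more Pgr and 48 in fewer. Lgr5 was found in 11 of the 25 cells with more Pgr and 4 of the 25 with less, Emx2 in 17 and 10, and Dpp4 in 14 and 8. Fzd10, a WNT receptor gene that had no place among the differences above, had the widest gap, at 14 and 5. Itga3 was found in 11 and 17, and Hoxa13 in 7 and 14, Wnt5a in 11 and 16, sma in 15 and 21 and Cd34 in 13 and 19. Fut4 (14 and 12), Sox2 (10 and 8), Hoxa11 (10 and 9), Hoxa10 (6 and 5) and Wnt7a (14 and 13) differed by at most 2 cells. In the 16 cells without Esr1, which detected a median of 49.5 assays (21 to 63), Hoxa10 was found in 0, Fut4 in 2 of 5 cells with Pgr and 2 of 11 without, Sox2 in 3 of 5 and 1 of 11, Hoxa11 in 2 of 5 and 4 of 11, and Itga3 in 5 of 5 and 9 of 11. These are too few cells to place beside the shares above.

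Levels within the detecting cells differed little next to their spread. They were compared for 69 assays found in at least 5 cells of each group, as the difference in Ct relative to Gapdh over the same strata, where 1 cycle is about a doubling and a positive value means more transcript with Pgr. At least 1 cycle higher were 8 of 69 (11.6%) and at least 1 cycle lower 2 of 69 (2.9%), and 46 lay above 0 and 23 below, with a median of 0.34 cycles. The difference was larger than the SD between cells for 1 of the 69, Itga2. Itga2, another integrin subunit, had a Ct minus Gapdh Ct of 13.0 ± 2.76 (n = 11 cells) with Pgr and 10.4 ± 2.79 (n = 5) without, a difference of -2.83 cycles that rests on 5 cells without Pgr. It was -1.48 with 2 strata and -0.64 with undetected cells set at the Ct limit.

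Emx2 was higher in level as well as in share. Where it was detected, its Ct minus Gapdh Ct was 7.01 ± 1.67 (n = 27 cells, 3.96 to 11.1) with Pgr and 8.42 ± 0.93 (n = 6, 7.41 to 9.96) without, a stratified difference of 1.39 cycles, and in each of 15 alternatives it was at least 1.21. The T-box gene Tbx3 (1.97 cycles, 14 and 5 cells), the receptor tyrosine kinase gene Mst1r (1.54, 21 and 5 cells), the insulin receptor gene Insr (1.49, 31 and 13 cells), the growth regulator gene Lrig1 (1.26, 14 and 6 cells) and h2b (1.16, 24 and 12 cells) were the others with the highest differences, and in all of these the groups overlapped. The difference of Lrig1 was -0.081 cycles in the cells that detect Epcam. With undetected cells set at the Ct limit that of h2b was 0.12 cycles, of Tbx3 0.51 and of Insr 0.58, and with no reference that of Mst1r was 0.38. The difference of h2b stayed past 1 cycle in 10 of 15 alternatives. Wnt5a differed by 1.15 cycles and Epcam by 1.09, with 7.60 ± 2.25 (n = 39) against 8.59 ± 1.47 (n = 17). Wnt7a differed by 0.98 cycles, just short of 1, with 5.79 ± 1.48 (n = 27) against 6.61 ± 2.58 (n = 15). One of the cells without Pgr stood at 15.2, and the medians were nearly equal, 5.64 cycles with Pgr and 5.75 without. Klf4, a zinc finger transcription factor gene, was lower by the 1-cycle limit (-1.06 cycles, 6.34 ± 2.11 against 5.21 ± 2.83), and passed it in 7 of 15 alternatives. The next lowest did not reach 1 cycle: Cd44, a hyaluronan receptor gene (-0.89), Pecam1 (-0.67), Krt18 (-0.48) and Gja1 (-0.47). Actin, a reference, differed by -0.28 cycles, and Krt19 by 0.03.

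**Figure D4:**
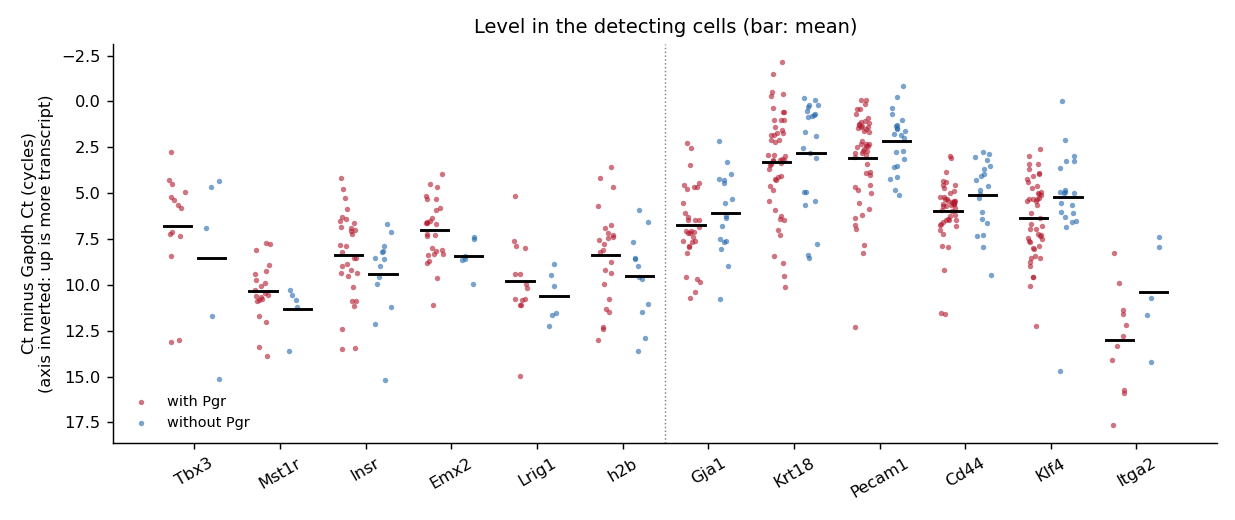
Each point is 1 detecting cell, placed by its Ct minus Gapdh Ct in cycles on an inverted axis so that up is more transcript, with the group mean as a bar. Left of the dotted line are the 6 assays with the highest stratified difference in level with Pgr and right of it the 6 with the lowest; the points of both groups overlap for each.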

How the data were processed

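The authors deposited raw Ct values, scores with no normalization per the file headers, for 96 assays in 96 cells, where 40 marks no Ct. A ratio table the authors also deposited (fold change relative to a housekeeping gene and 1 control cell, per the file headers) matched the Ct table to within 6.55e-06 on the log2 scale and was not used further. The sources used here do not give PCR settings or quality filters. Columns were matched to cells by number. No 2 kept cells shared a recorded Ct. Gene symbols came from RefSeq names or synonyms (GRCm38.p6, names only) for 78 assays, and 14 from CD or protein names; actin, h2b, cd327 and sma keep their own. The names er and pr each fit 2 genes and were read as Esr1 and Pgr, and primers were not checked.

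Shares count cells below Ct 28. Differences were averaged over 3 strata with weight n1n0/(n1+n0), ties broken by cell number; this step was tested on simulated data. Limits of size were 20 points and 1 cycle. Named were Esr1, Pgr, the reference genes, every member of the patterning, gland, epithelial, proliferation and other-cell lists, the 10 extreme shares and 6 extreme levels in each direction, the 6 most moved by strata and the 5 most like Pgr. Ngfr, Trp63, Anpep, Enpep, Itgb1, Itgae, Fzd10 and the pairs of genes counted together were chosen after their values were seen. The members and lists were chosen with earlier results of these data known. Alternatives changed Ct limits, the Pgr and Gapdh limits, the strata, the reference and the cells kept. Doublets were not removed. Of the assays at least 20 points higher with Pgr, 1 is counted but not reported here. Work used Python 3.11.15, numpy 2.4.6, pandas 2.3.3, scipy 1.17.1 and matplotlib 3.10.9.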

Additional observations from a re-analysis of the deposited data

How the results depend on the processing

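Cells are few, and in the group without Pgr 1 cell is worth 4.55 points. Of 273 values of named shares under the alternatives, all 273 stayed within the counting interval of the difference. These include the share difference of Hprt in the cells that detect Hprt, which that choice of cells fixes at 0. Of 169 named levels, 168 stayed within 1 SD between cells. Both bounds are wide, so staying within them does not show that a value is stable. In the cells that detect Hprt the share difference of Emx2 fell from 21.9 to 0.68 points. That of Hopx went from -17.5 to -39.0 there, and both count as within. Emx2 passed the size limit for shares in 6 of 13 alternatives, Fut4 and Dpp4 in all 13. Of 69 level differences in the main setting, 1 exceeded the SD. The level of Lrig1 changed sign, to -0.081 cycles in the cells that detect Epcam; the cause was not tested. No paired analysis was possible because all cells carry the same label, with no shared numbers. The run on cells that detect Hprt was chosen after the values were seen and holds only 12 cells without Pgr.

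The 8 assays at least 20 points higher with Pgr became 4 in the cells that detect Epcam, and numbered 6 to 11 in the other settings. The 1 assay at least 20 points lower became 0 with a Ct limit of 24, 2 with 2 strata or Gapdh below 16, 3 with Pgr below 26, a linear fit or without the 10% of deepest cells, 5 with Epcam and 7 with Hprt. The 8 levels at least 1 cycle higher became 5 with a Ct limit of 24 or no adjustment, 14 with Pgr below 26, 17 with Gapdh and actin as reference and 13 with no reference. The 2 at least 1 cycle lower became 1 with a Ct limit of 26, a linear fit, 2 or 4 strata, Gapdh below 16, without the deepest cells, with Gapdh and actin or with no reference, 4 with Hprt, and 8 with undetected cells at the limit, which puts differences of share into the level. The median level difference of 0.34 cycles ran from 0.025 with undetected cells at the limit to 0.52 with Gapdh and actin as reference. The mean of detected assays stayed 3.00 to 5.24 higher with Pgr.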
